A study of Homo sapiens with 6 samples.

Results

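The fibroblast growth factor (FGF) axis was followed through 10 genes: the receptors FGFR1, FGFR2 and FGFR3, the decoy receptor FGFRL1, the carrier FGFBP1, the ligands FGF2 and FGF5, and the intracellular inhibitors SPRY1, SPRY2 and SPRY4. Every Affymetrix Human Genome U133 Plus 2.0 probe set annotated with exactly 1 gene symbol, that symbol being 1 of the 10, was taken, which gave 32 of 41091 probe sets and 10 of 19775 genes. The arrays measured mRNA in MCF-10A, an immortalized and nontransformed line of human breast epithelium grown in mammary epithelial medium. The MBD2 group held 3 arrays of MCF-10A cells infected with a lentivirus that carries MBD2, a protein that binds methylated DNA, and the virus was packaged in HEK293 cells. The control group held 3 arrays of MCF-10A cells without the MBD2 virus. The series design calls these controls uninfected, whereas the methods describe an empty virus and, in their fold rule, an untreated control. An effect of infection itself therefore cannot be told apart from that of MBD2 if the controls were uninfected. The promoter that drives MBD2 on the virus, the time after infection and whether 1 clone or a pool was used are not given in the sources used here. The replicates are called technical in the series design and biological in the methods, and no source names separate cultures. The p-values therefore speak only to the spread among 6 arrays, which may be technical.

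FGFs are secreted proteins that bind heparan sulfate at the cell surface and pair up receptor tyrosine kinases. The activated receptor signals through adaptors and the RAS, RAF and ERK kinases, and this raises transcription of ETV factors, dual-specificity phosphatases, Sprouty and Spred proteins, several of which dampen the same signal. In breast epithelium FGFR2 is best known as the receptor for FGFs made by the stroma, and FGFs take part in branching of the mammary ducts.

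FGFR3 was lower in MBD2 cells and FGF2 was higher, each in 1 of its 2 probe sets, and these were the only member probe sets called. A probe set was called when its adjusted p from limma was under 0.05 and its difference at least 1.5-fold. Levels are log2 values normalized by the authors with RMA (robust multi-array average), so a difference of 1 unit is a factor of 2, and all differences are MBD2 minus control. Exact permutation of 3 against 3 arrays cannot go below p = 0.1, so single values were tested in the limma fit over all probe sets. Levels of different probe sets are not compared, since probes differ in brightness.

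The transcript of MBD2 itself was 12.17, 11.72 and 12.50 in MBD2 arrays 1, 2 and 3, against 8.92, 9.03 and 9.68 in control arrays 1, 2 and 3 (probe set 202484_s_at, difference 2.92, adjusted p = 0.0157 from limma). This call was lost without MBD2 array 3 (adjusted p = 0.0828), control array 1 (0.0957) or control array 2 (0.107), and with near-identical arrays averaged (0.401). The other 3 MBD2 probe sets differed by -0.08, -0.03 and 0.11, and the mean of all 4 by 0.73 (adjusted p = 0.0470 from limma over genes). These 3 read low in both groups: 4.47 to 4.83 (202485_s_at), 3.81 to 4.11 (214396_s_at) and 2.92 to 3.17 (214397_at). Probe sets for a bacterial transcript not added to the samples read 2.93 to 3.67. The arrays of a group were not equally far apart. MBD2 arrays 2 and 3 differed by over 2-fold at only 148 probe sets and control arrays 1 and 2 at 26, whereas MBD2 array 1 differed from its own group at 5126 to 5552 and from control arrays 1 and 2 at 2623 to 2940. Control array 3 differed from the other controls at 3037 to 3103. Hybridization controls averaged 9.94 and 10.01 on MBD2 arrays 2 and 3 and 10.96 to 11.33 on the other 4 arrays. The basal keratins KRT5 and KRT14 lay between 11.49 and 14.37 on every array, and the 6 markers of HEK293 cells between 3.17 and 5.70. Both keratins were lower in MBD2 cells with no overlap of the groups. KRT5 differed by -1.26 (adjusted p = 0.167 from limma) and KRT14 by -0.56 (adjusted p = 0.234 from limma). Among the other basal markers CDH3 differed by -1.14, ITGB4 by 0.81 and LAMB3 by 0.61, and no basal marker was called. The 8 fibroblast markers, summed on the linear scale, reached 12518 on MBD2 array 1, 2187 and 2474 on the other MBD2 arrays and 1242 to 3484 on the control arrays. The summed luminal markers were 2070 to 4492 in MBD2 arrays and 1457 to 1868 in control arrays. Of the 7, the keratin KRT8 was called higher (difference 2.02) and KRT18 differed by 1.66. The others lay below 0: GATA3 by -0.51, ESR1 by -0.32, KRT19 by -0.08, FOXA1 by -0.05 and PGR by -0.02. The part of these differences in the results that follow was not tested, and in bulk samples fewer cells of a type and less RNA per cell cannot be told apart.

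**Figure D1:**
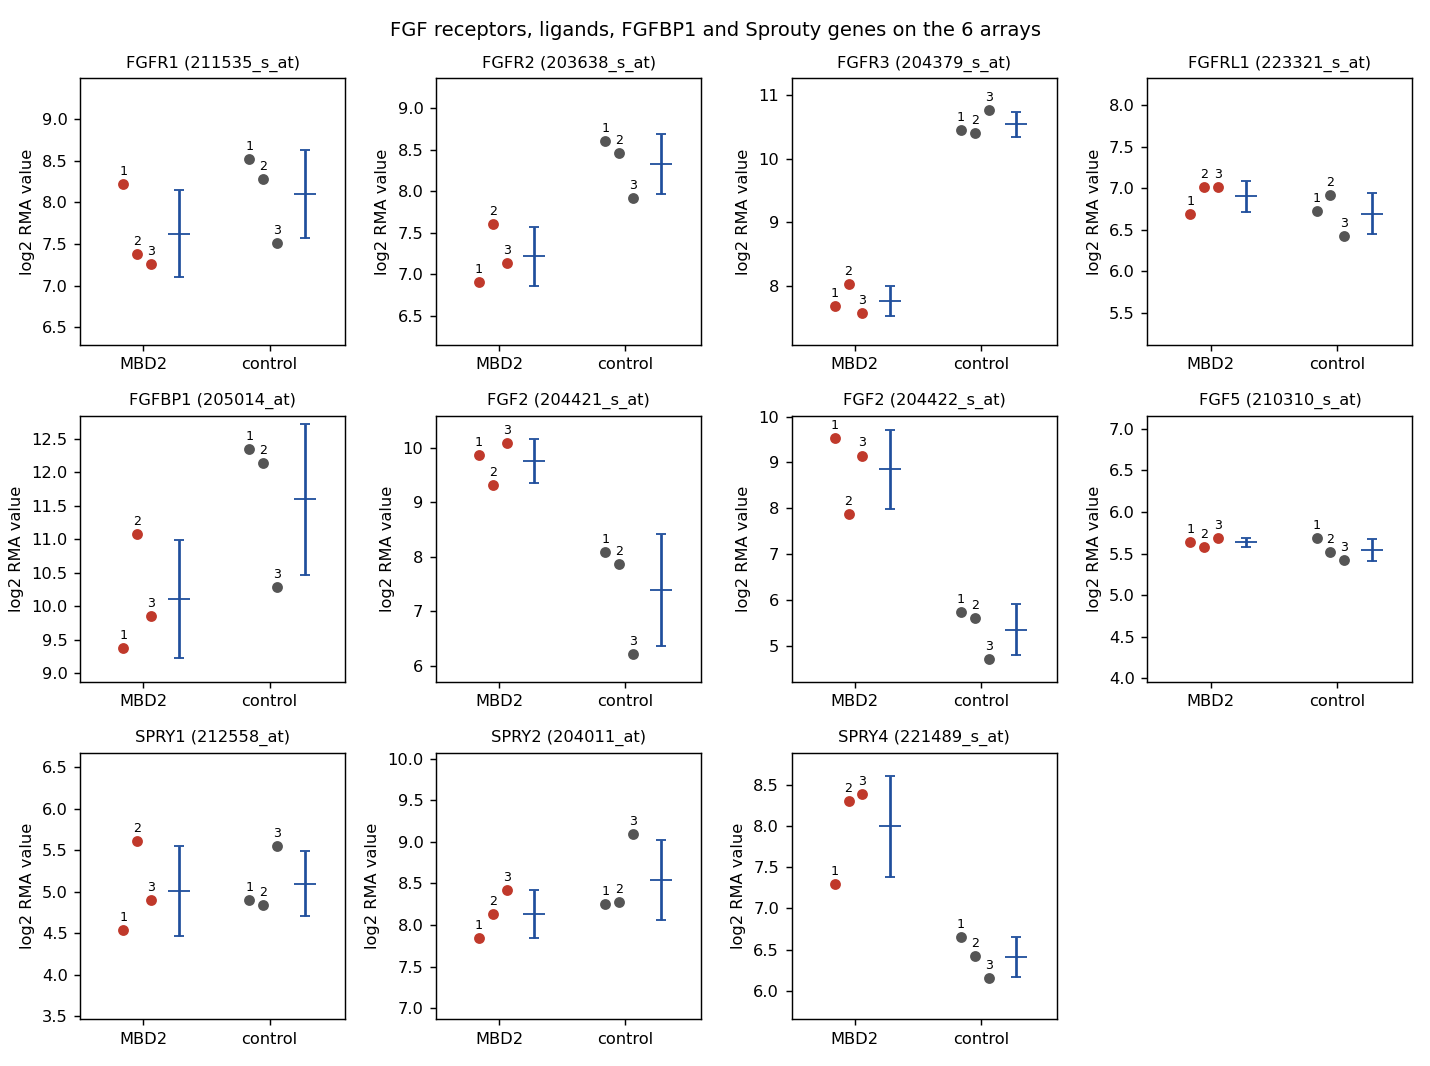
Log2 RMA value of each array for the probe set with the highest mean of each of the 10 genes and for the other probe set of FGF2, MBD2 arrays (red) to the left of control arrays (grey), numbered by replicate, each group with its mean and SD (blue bar) and each panel with its own range. FGFR3 and FGF2 separate by group, whereas FGFBP1 and SPRY2 overlap.

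The upstream sequences of FGFR3, FGF2 and FGFBP1 are shown because MBD2 protein binds DNA through methylated CG pairs, and these genes differ widely in how many CG they hold. They come from RefSeq (GRCh38.p14) and run 5′ to 3′ on the strand of the gene, with every CG in capitals. FGFR3 (chr4:1793043-1793292, plus strand) and FGFBP1 (chr4:15938741-15938990, minus strand) are the 250 bases before the annotated start. FGF2 (chr4:122826581-122826681, plus strand) is cut to the 101 bases of its window that lie outside the annotated gene.
FGFR3: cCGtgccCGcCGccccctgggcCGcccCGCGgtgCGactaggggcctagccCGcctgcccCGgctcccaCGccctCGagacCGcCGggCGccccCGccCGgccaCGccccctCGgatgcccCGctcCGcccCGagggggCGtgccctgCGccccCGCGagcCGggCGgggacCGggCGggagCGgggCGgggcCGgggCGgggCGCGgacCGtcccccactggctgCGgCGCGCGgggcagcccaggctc
FGF2: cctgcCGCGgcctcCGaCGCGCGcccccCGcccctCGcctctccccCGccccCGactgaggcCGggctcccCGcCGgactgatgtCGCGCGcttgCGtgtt
FGFBP1: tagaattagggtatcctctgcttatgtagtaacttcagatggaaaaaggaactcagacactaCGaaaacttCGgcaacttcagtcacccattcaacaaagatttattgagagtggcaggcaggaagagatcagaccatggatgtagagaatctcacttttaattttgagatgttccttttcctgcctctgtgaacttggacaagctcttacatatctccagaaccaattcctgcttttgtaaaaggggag
The letters CG, which read the same on both strands, occurred 40 times in the FGFR3 window, 33 times in the full 250-base window of FGF2 and 2 times in that of FGFBP1. Of 35116 RefSeq promoters of the same length, 93.9% hold at least 1 CG and the median is 11. As many CG as FGFR3 or more were held by 2.2% of them, as many as FGF2 or more by 8.1%, and as few as FGFBP1 or fewer by 22.9%. The promoter table matched 9 of the 10 genes. In windows not shown, CG counts reached 42 in FGFR2, 27 in FGF5, 24 in SPRY1, 23 in SPRY2, 22 in SPRY4 and 21 in FGFRL1. No probe set of these genes was called. Methylation and MBD2 binding of these windows were not measured here, so the counts describe sequence only.

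FGFR3 (chr4:1793293-1808867, GRCh38.p14) encodes a receptor tyrosine kinase known for limiting bone growth and for activating mutations in urothelial tumours. Its probe set 204379_s_at read 7.70, 8.03 and 7.59 in MBD2 arrays, against 10.45, 10.39 and 10.76 in control arrays. All 3 MBD2 arrays lay far below all 3 control arrays, and the spread within a group was small beside the gap. The means were 7.77 ± 0.23 in MBD2 cells and 10.54 ± 0.19 in control cells (SD, n = 3 each), a difference of -2.76 (SE 0.166, 95% interval -3.17 to -2.36), or 6.79-fold lower in MBD2 cells (adjusted p = 0.00537 from limma). The difference stood between -2.89 and -2.65 with any 1 array left out, with adjusted p from 0.00341 to 0.0584, and the call was lost without control array 1 (adjusted p = 0.0526) or control array 2 (adjusted p = 0.0584). A fit with hybridization level (low on MBD2 arrays 2 and 3) as a block compares MBD2 array 1 alone with the control arrays, and there FGFR3 differed by -2.84. That arm is a single array, whose spread could come only from the other arrays. Values of single genes in this fit are therefore given as differences with no test. With near-identical arrays averaged into 1 value, 2 values a group remained and the difference was -2.84 (adjusted p = 0.307 from limma).

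The other FGFR3 probe set, 204380_s_at, read 3.85, 3.84 and 3.76 in MBD2 arrays, against 3.65, 3.68 and 3.75 in control arrays (difference 0.12, adjusted p = 0.560 from limma). Probe sets for a bacterial transcript that was not added to the samples read 2.93 to 3.67, so this FGFR3 probe set lay within or close to that range in both groups. The mean of both FGFR3 probe sets differed by -1.32 (adjusted p = 0.0103 from limma over genes).

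Over the 6 arrays the profiles most like that of FGFR3 among 19775 genes were ANKRD22 (Pearson r = 0.9999) and CALB1, the calcium-binding protein calbindin 1 (r = 0.999). ANKRD22 read 5.27, 5.77 and 5.06 in MBD2 arrays, against 9.72, 9.53 and 10.14 in control arrays. CALB1 read 5.49, 5.95 and 5.47 in MBD2 arrays, against 12.20, 12.20 and 13.10 in control arrays. All 3 genes were lowest in MBD2 arrays 1 and 3, less low in MBD2 array 2, and highest in control array 3. These 6 points share the arrays and their 2 groups, and the likeness is a description.

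FGFR2 (chr10:121478330-121598458) encodes the receptor whose IIIb splice form is the one typical of epithelium. None of its 11 probe sets was called, and their differences ranged from -1.10 to 0.03. The probe set with the highest mean, 203638_s_at, read 6.91, 7.61 and 7.14 in MBD2 arrays, against 8.60, 8.46 and 7.92 in control arrays. Every MBD2 array lay below every control array, and control array 3 was the nearest of the controls. The means were 7.22 ± 0.36 in MBD2 cells and 8.32 ± 0.36 in control cells (SD, n = 3 each), a difference of -1.10 (SE 0.254, 95% interval -1.73 to -0.48, adjusted p = 0.109 from limma). Probe set 208228_s_at, with the lowest adjusted p of the 11, read 6.26, 6.75 and 6.42 in MBD2 arrays, against 7.71, 7.48 and 7.22 in control arrays (difference -0.99, adjusted p = 0.0663 from limma). The same order of arrays recurred there. The MBD2 arrays were the lower ones without overlap in 6 of the 11 probe sets and in none the higher, against 12.3% lower and 10.4% higher of all probe sets. The 11 are probe sets of 1 gene on the same arrays, so they are not separate evidence. The mean over all 11 differed by -0.42 (adjusted p = 0.105), and 208228_s_at was called with MBD2 array 1 left out (adjusted p = 0.0371 from limma) or with arrays centred on housekeeping genes (0.0403). Without MBD2 array 1, 8.80% of all probe sets were called higher and 4.68% lower, which bears on each call named for that setting.

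**Figure D2:**
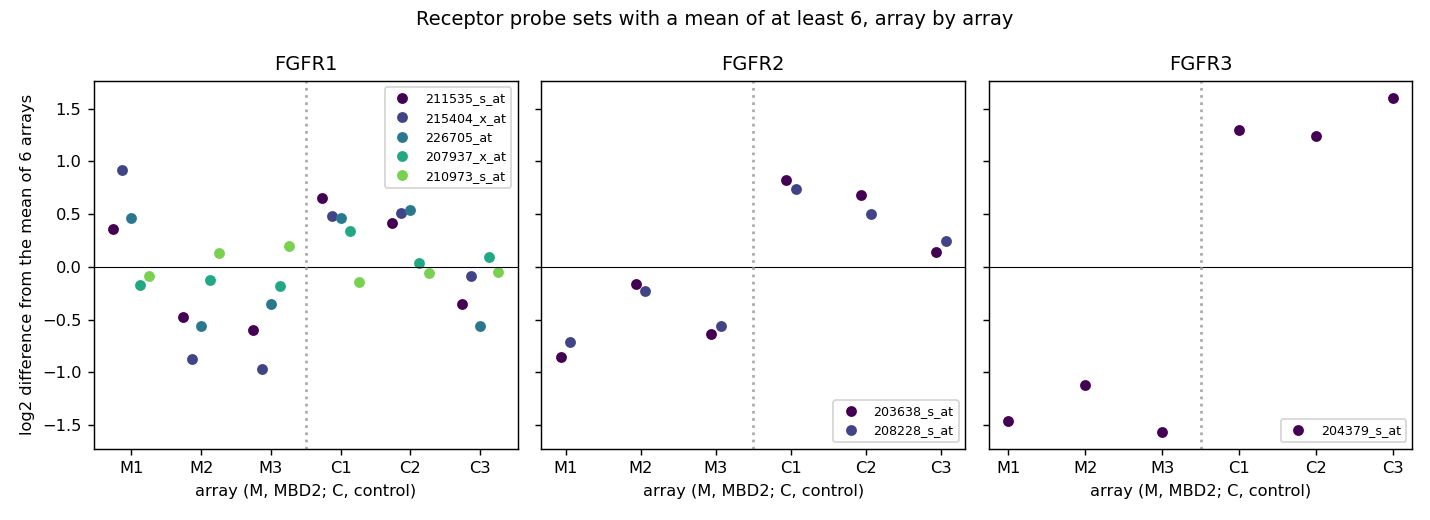
Log2 difference of each array (M, MBD2; C, control) from the mean of the 6 arrays, for the receptor probe sets with a mean of at least 6. FGFR3 and FGFR2 split by group, whereas the FGFR1 probe set 211535_s_at was high on MBD2 array 1 and control arrays 1 and 2 and low on the other 3.

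FGFR1 (chr8:38411143-38468635) encodes the receptor best known in mesenchymal cells, and it is amplified in a subset of breast cancers. None of its 7 probe sets was called, and their differences ranged from -0.61 to 0.26. Probe set 211535_s_at, with the highest mean, read 8.22, 7.38 and 7.26 in MBD2 arrays, against 8.52, 8.27 and 7.51 in control arrays. The groups overlapped: MBD2 array 1 was nearer to control arrays 1 and 2 than to the other MBD2 arrays. The difference was -0.48 (SE 0.361, 95% interval -1.37 to 0.40, adjusted p = 0.566 from limma). Probe set 215404_x_at read 8.57, 6.78 and 6.67 in MBD2 arrays, against 8.13, 8.16 and 7.56 in control arrays, and 226705_at read 7.90, 6.87 and 7.08 in MBD2 arrays, against 7.90, 7.97 and 6.87 in control arrays. All 3 probe sets put MBD2 array 1 with control arrays 1 and 2, as the count of probe sets over 2-fold apart did. The summed fibroblast markers were highest on MBD2 array 1, whereas COL1A1, COL1A2, PDGFRA and PDGFRB singly were not. A link between these markers and FGFR1 was not tested. Without MBD2 array 1, 215404_x_at was called (difference -1.22, adjusted p = 0.0209 from limma). In MBD2 array 1 alone, with hybridization level as a block, 211535_s_at differed by 0.12, and without MBD2 array 1 and control array 3 it differed by -1.07. The fit without those 2 arrays keeps only near-identical arrays of each group and called 15.5% of all probe sets higher and 9.96% lower, so its calls are not used for single genes. The remaining probe sets ranged from 3.98 to 7.37, and in 1 of them, 207937_x_at, the MBD2 arrays lay below the control arrays without overlap (difference -0.31, adjusted p = 0.260 from limma).

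FGFRL1 (chr4:1010212-1026898) encodes an FGF-binding receptor that lacks the kinase domain. Its probe set 223321_s_at read 6.69, 7.01 and 7.01 in MBD2 arrays, against 6.73, 6.92 and 6.43 in control arrays. The groups overlapped, with a difference of 0.21 (SE 0.170, 95% interval -0.21 to 0.63, adjusted p = 0.595 from limma). The other probe set, 223648_s_at, lay between 4.05 and 4.15 on all arrays (difference -0.03).

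FGFBP1 (chr4:15935577-15938740) encodes a secreted protein that frees FGFs from heparan sulfate in the matrix and carries them to their receptors. The study lists it among predicted targets of the microRNA mir-496 that it counts as repressed in MBD2 cells. That list asks for a smaller fold change than the 1.5-fold used here, with a p threshold of its own. The only FGFBP1 probe set, 205014_at, read 9.38, 11.09 and 9.86 in MBD2 arrays, against 12.35, 12.14 and 10.29 in control arrays. Control arrays 1 and 2 were above all others, but control array 3 lay below MBD2 array 2, so the groups overlapped. The means were 10.1 ± 0.88 in MBD2 cells and 11.6 ± 1.13 in control cells (SD, n = 3 each), a difference of -1.49 (SE 0.684, 95% interval -3.17 to 0.19, adjusted p = 0.351 from limma). Leaving out 1 array at a time gave -2.14 to -1.11 with adjusted p from 0.129 to 0.697. With both control array 3 and MBD2 array 1 left out, the difference was -1.77.

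FGF2 (chr4:122826682-122898236) encodes basic FGF, a broadly acting ligand that has no signal peptide and leaves cells by an unconventional route. Its probe set 204422_s_at read 9.52, 7.88 and 9.15 in MBD2 arrays, against 5.73, 5.59 and 4.71 in control arrays. All 3 MBD2 arrays lay above all 3 control arrays, MBD2 array 2 being the lowest of its group and control array 3 the lowest of all. The means were 8.85 ± 0.86 in MBD2 cells and 5.34 ± 0.55 in control cells (SD, n = 3 each), a difference of 3.51 (SE 0.492, 95% interval 2.30 to 4.71), or 11.4-fold higher in MBD2 cells (adjusted p = 0.0360 from limma). Leaving out 1 array at a time gave differences of 3.17 to 3.99 with adjusted p from 0.0142 to 0.170, and the call was lost without MBD2 array 3 (0.170), control array 1 (0.148), control array 2 (0.157) or control array 3 (0.0571). MBD2 array 1 alone, with hybridization level as a block, differed by 4.18, and with near-identical arrays averaged the difference was 3.83 (adjusted p = 0.435).

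The other FGF2 probe set, 204421_s_at, which has the higher mean, read 9.86, 9.31 and 10.08 in MBD2 arrays, against 8.09, 7.86 and 6.21 in control arrays. The groups again did not overlap, and control array 3 was well below the other controls. The means were 9.75 ± 0.40 in MBD2 cells and 7.39 ± 1.02 in control cells (SD, n = 3 each), a difference of 2.36 (SE 0.526, 95% interval 1.07 to 3.66, adjusted p = 0.100 from limma), which was not called. Without control array 3 it was called (difference 1.78, adjusted p = 0.0472 from limma), and so was the mean of both FGF2 probe sets (difference 2.94, adjusted p = 0.0455 from limma over genes).

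FGF5 (chr4:80266588-80291017) encodes a ligand known for ending the growth phase of hair. Its 3 probe sets lay between 4.98 and 5.74 on all 6 arrays, near the median of 5.24 that every array shares, and none was called. Probe set 210310_s_at, with the highest mean, read 5.64, 5.58 and 5.69 in MBD2 arrays, against 5.68, 5.52 and 5.43 in control arrays (difference 0.09, 95% interval -0.17 to 0.36, adjusted p = 0.719 from limma). The groups overlapped, and the other 2 probe sets differed by -0.03 and 0.18.

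The Sprouty proteins are intracellular inhibitors of receptor tyrosine kinase signalling that are themselves induced by ERK activity. SPRY4 (chr5:142310430-142325021) read 7.29, 8.30 and 8.39 in MBD2 arrays, against 6.65, 6.42 and 6.16 in control arrays (probe set 221489_s_at). Every MBD2 array lay above every control array, MBD2 array 1 being the nearest to the controls. The means were 7.99 ± 0.61 in MBD2 cells and 6.41 ± 0.25 in control cells (SD, n = 3 each), a difference of 1.58 (SE 0.322, 95% interval 0.79 to 2.37, adjusted p = 0.0818 from limma), which was not called. It was called with arrays centred on housekeeping genes (difference 1.49, adjusted p = 0.0384) and without MBD2 array 1 (difference 1.93, adjusted p = 0.00469 from limma). In MBD2 array 1 alone, with hybridization level as a block, the difference was 0.88.

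SPRY2 (chr13:80335976-80341126) read 7.85, 8.13 and 8.43 in MBD2 arrays, against 8.25, 8.28 and 9.09 in control arrays, and the groups overlapped (probe set 204011_at, difference -0.41, 95% interval -1.09 to 0.27, adjusted p = 0.524 from limma). SPRY1 (chr4:123396795-123403760) read 4.54, 5.60 and 4.90 in MBD2 arrays, against 4.90, 4.84 and 5.55 in control arrays (probe set 212558_at, difference -0.08, 95% interval -0.89 to 0.72, adjusted p = 0.932 from limma). Its other probe set differed by -0.16. Only SPRY4 among the inhibitors had groups that did not overlap, and a difference between SPRY4 and the others in response was not tested.

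**Figure D3:**
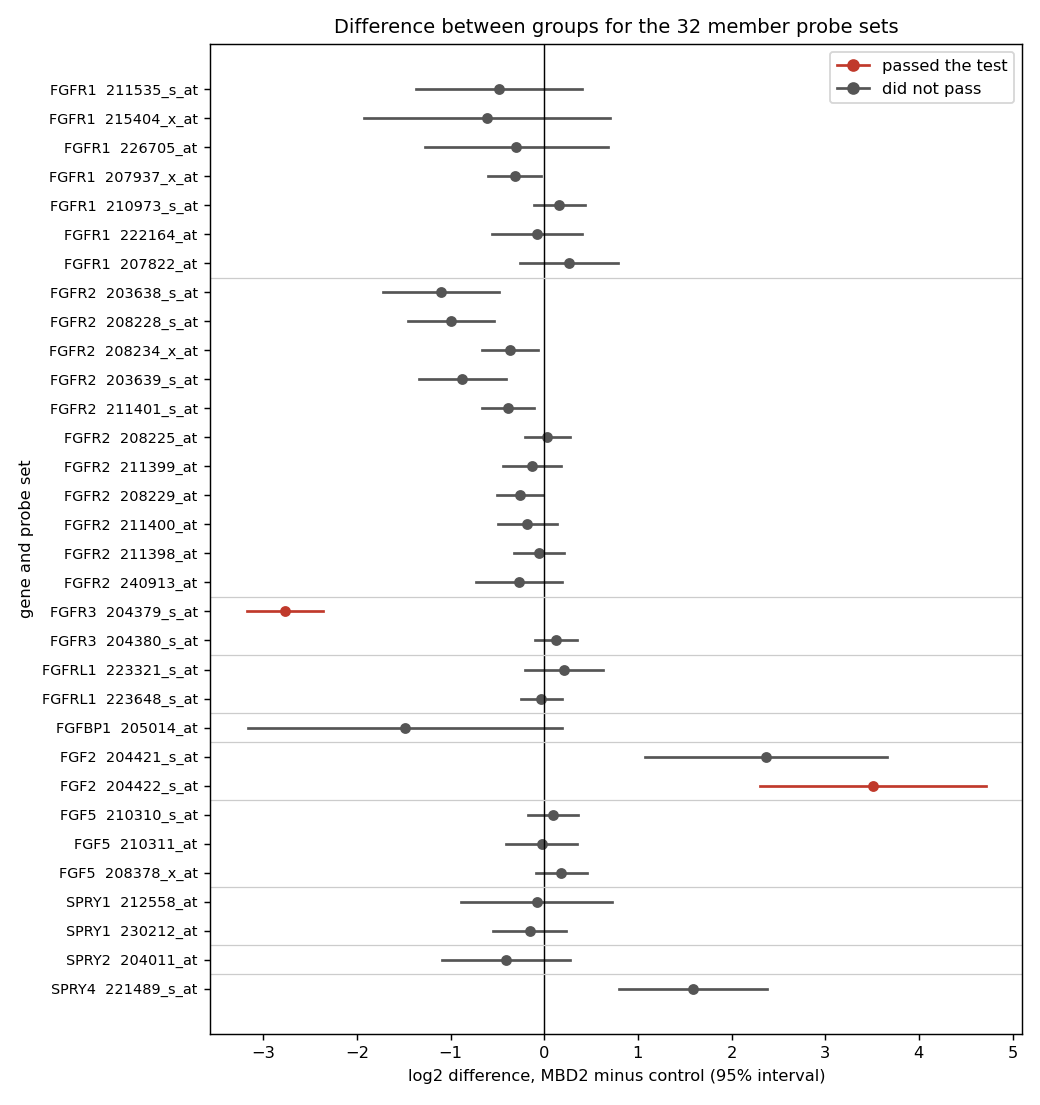
Difference of log2 means, MBD2 minus control, with its 95% interval from limma for each of the 32 member probe sets, grouped by gene. FGF2 204422_s_at at 3.51 and FGFR3 204379_s_at at -2.76 were called, and the other 30 were not.

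Over all members, 1 of 32 probe sets was called higher and 1 lower, against 0.898% called higher and 0.978% called lower of the 41091 tested. Groups did not overlap in 5 member probe sets with MBD2 above and 8 with MBD2 below, against 10.4% and 12.3% of all probe sets. An unadjusted p under 0.05 was found for 3 above and 8 below, where 8.49% and 8.05% of all probe sets lay, and 6 of the 8 belong to FGFR2. The fold rule given in the methods was applied here as every MBD2 array over 1.5-fold above or under 0.5 of the mean of the controls. It took 3 member probe sets as higher (both of FGF2 and that of SPRY4) and 1 as lower (FGFR3), against 2.99% and 1.40% of all. The median difference over the 32 was -0.14, against -0.01 over all probe sets, and 68.8% of the members lay below 0, against 50.7% of all. FGFR2 and FGFR1 supply 18 of the 32 probe sets.

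The rest of the pathway was described with 76 further genes, of which 69 were measured and 7 others were not analysed here. Each gene was taken by its probe set with the highest mean. None of the 69 was called in either direction, against 1.04% called higher and 1.28% called lower of 19775 genes. An unadjusted p under 0.05 was found for 10 above and 5 below, where 8.83% and 9.79% of all genes lay. Groups did not overlap in 10 genes with MBD2 above and 5 with MBD2 below, against 10.4% and 14.6% of all genes. The median difference was 0.01, against -0.02 over all genes. Without MBD2 array 1, 7 of the 69 were called higher and 5 lower. Of all probe sets, 8.80% and 4.68% were called there, but the share of genes by highest probe set was not computed for that setting.

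By role, the 15 transcriptional targets and feedback inhibitors had a median difference of 0.30, with 6 above and 1 below at an unadjusted p under 0.05. Of all genes, 8.83% lay above and 9.79% below at that p, which is the share to set beside each role. ETV5, an ETS factor induced by FGF signalling, read 8.99, 9.27 and 9.48 in MBD2 arrays, against 7.51, 7.25 and 5.91 in control arrays (difference 2.36, adjusted p = 0.0631 from limma). SPRED1, an inhibitor of RAS signalling, read 8.81, 7.85 and 7.92 in MBD2 arrays, against 7.19, 7.32 and 6.57 in control arrays (difference 1.17, adjusted p = 0.163). Both had MBD2 arrays above control arrays without overlap, as did SPRY4. DUSP6, a phosphatase that inactivates ERK, read 9.49, 10.84 and 10.88 in MBD2 arrays, against 9.12, 9.32 and 9.65 in control arrays, where MBD2 array 1 overlapped the controls (difference 1.04, adjusted p = 0.282). ETV4, a relative of ETV5, differed by 0.30 (adjusted p = 0.295). SPRED2, named after its values were seen, read 7.47, 8.75 and 8.51 in MBD2 arrays, against 6.57, 6.38 and 6.31 in control arrays (difference 1.83, adjusted p = 0.0655). FLRT3, a membrane partner of FGF receptors and also named after its values were seen, was the 1 of the 15 below at an unadjusted p under 0.05 (difference -1.84, adjusted p = 0.230). DUSP4, likewise named afterwards, differed by 0.94 (adjusted p = 0.0868 from limma). EGR1 (difference -1.51), SPRED3 (-0.24), IL17RD (-0.19) and ETV1 (-0.09) also lay below 0, with overlapping groups.

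Among the 12 adaptors and effectors, 2 lay above and 0 below at an unadjusted p under 0.05, with a median of 0.28. The 16 other ligands had a median of -0.05, with 0 above and 3 below, and FGF1, the acidic FGF, differed by 0.61 (adjusted p = 0.503 from limma). FGFR4, the remaining kinase receptor, read 6.45, 6.33 and 6.16 in MBD2 arrays, against 6.52, 6.40 and 6.58 in control arrays (difference -0.18, adjusted p = 0.492 from limma). The groups overlapped there. The 17 heparan sulfate genes had a median of -0.12, with 1 above and 1 below. SDC1, the heparan sulfate carrier syndecan 1, read 12.22, 12.08 and 11.91 in MBD2 arrays, against 12.65, 12.63 and 12.68 in control arrays. Its MBD2 arrays lay below the control arrays without overlap (difference -0.58, adjusted p = 0.0726 from limma). Of the 4 intracellular FGFs 1 lay above at an unadjusted p under 0.05, and of the 3 receptors and coreceptors and the 2 binding or matrix proteins none did in either direction.

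**Figure D4:**
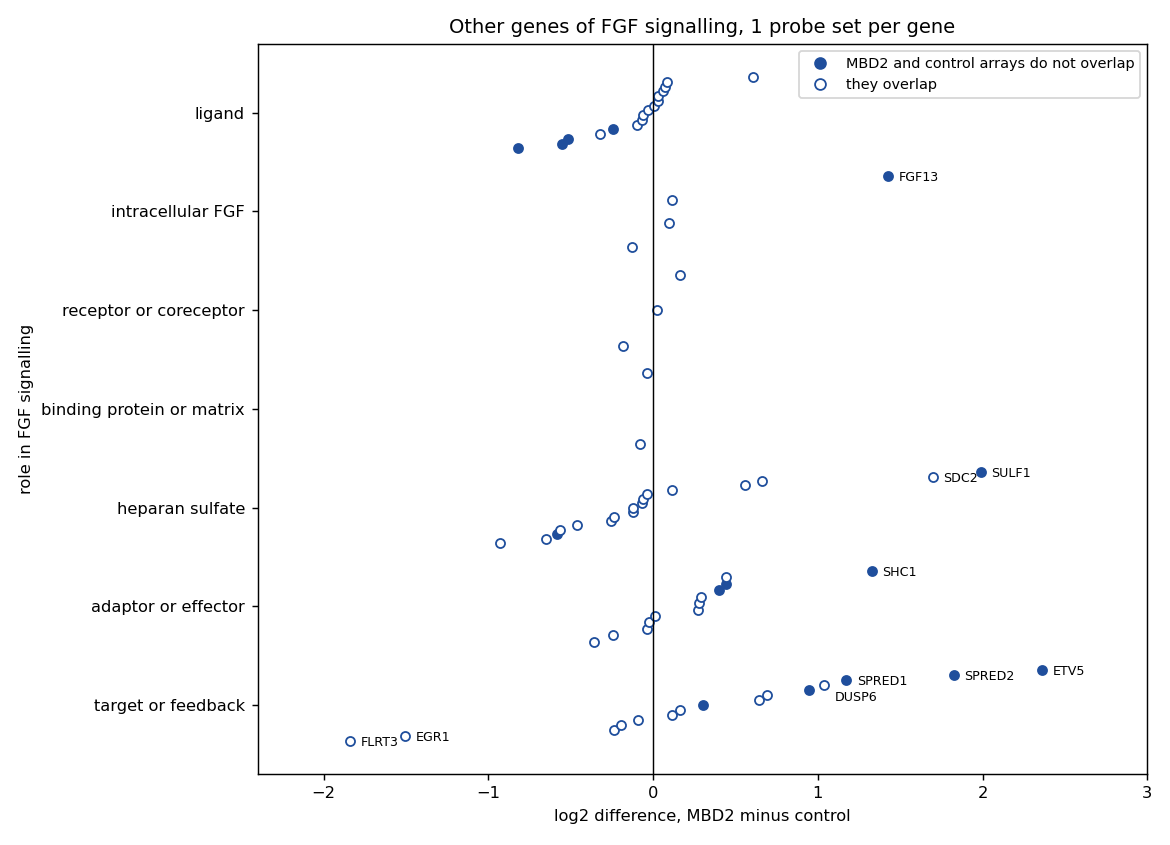
Difference of log2 means, MBD2 minus control, for the 69 measured genes of FGF signalling other than the members, by role, 1 probe set a gene. Names are given for differences of over 1 in size. Filled points mark genes whose MBD2 and control arrays do not overlap (10 above and 5 below), ETV5 at 2.36 lies highest, and none of the 69 was called.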

How the data were processed

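RNA of 3 MBD2 and 3 control MCF-10A samples was hybridized to Affymetrix Human Genome U133 Plus 2.0 arrays. The deposited values are log2 intensities that the authors summarized per probe set with RMA. The submitters' processing notes list RMA and affy, with no versions. RMA gives all arrays nearly 1 distribution, so a change shared by most transcripts cannot show. Precision is limited by the number of arrays.

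Of 54675 probe sets, 41091 had 1 symbol in the platform annotation, 1801 had several, 11721 had none and 62 were controls. Only those with 1 symbol were tested. The RefSeq table held 19735 of 19777 Entrez identifiers.

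The fit was made in R 4.3.3 with limma 3.58.1 (lmFit on group alone, then eBayes, prior degrees of freedom 1.95), and p-values were adjusted by Benjamini-Hochberg over all 41091 probe sets. Where a result is said to be over genes, the mean of the probe sets of each gene was fitted. No filter on low values was used. Alternatives were other choices of probe sets, scaling, variance model, threshold and blocks, and arrays left out or averaged. On simulated data for 41091 probe sets, 0% of 50 changed by 1.5-fold were called, 22% at 2-fold, 76% at 4-fold and 84% at 8-fold. Each simulated array had independent noise and 93 probe sets were called in all. The real arrays include near-identical ones and gave 369 higher and 402 lower, so these shares do not carry over to them.

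Members were named by their probe set with the highest mean and by every called one; other probe sets shown singly were chosen after their values were seen. FGFR4, FGF1, DUSP6, ETV4, ETV5, SPRED1 and SDC1 were fixed by name. The 2 genes most like a member were sought only where its probe set with the highest mean was called. The members and lists were chosen with earlier results of these data known.

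Marker lists were basal (5 of 8 genes measured), luminal (7), fibroblast (8), HEK293 (6), leukocyte (3 of 5) and endothelial (4). The summed leukocyte markers were 160 to 355 in MBD2 arrays and 1005 to 1830 in control arrays, mostly CD14, while the pan-leukocyte marker PTPRC lay between 3.50 and 4.03 on the log2 scale. Summed basal markers were 26863 to 32030 in MBD2 arrays and 29414 to 48169 in control arrays. The sums were 134 to 143 in MBD2 arrays and 137 to 139 in control arrays for HEK293 and 120 to 133 in MBD2 arrays and 122 to 136 in control arrays for endothelium.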

Additional observations from a re-analysis of the deposited data

How the results depend on the processing

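Of the 41091 probe sets, 369 were called higher and 402 lower, of the members 1 and 1, and of the 69 other pathway genes 0 and 0. Leaving out 1 array at a time gave 2 to 3616 higher and 18 to 1924 lower over all probe sets, 0 to 2 higher and 0 to 3 lower members, and 0 to 7 higher and 0 to 5 lower pathway genes, the largest counts without MBD2 array 1. Without both control array 3 and MBD2 array 1, which leaves the near-identical arrays, the counts were 6380 and 4094 over all, 3 and 8 members, and 14 and 12 pathway genes. With near-identical arrays averaged, all counts were 0, with 2747 probe sets at an unadjusted p under 0.05. With hybridization level as a block, MBD2 array 1 alone is set against the controls and its spread is taken from the other arrays. This fit passed 222 probe sets as higher and 248 as lower over all, 0 members higher and 2 pathway genes higher. Its counts of lower members and lower pathway genes equalled those of the main fit. That arm is a single array, so these counts are not a test and no call from them is used. The fold rule of the methods, which gives no fitted difference, took 1230 as higher over all, 3 members higher and 8 pathway genes higher.

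Restricting to probe sets with no ending for shared sequence left 245 and 246 over all, 0 and 0 members and 2 pathway genes higher, since both called members have such an ending. Taking 1 probe set per gene gave 0 members higher, because FGF2 is then held by 204421_s_at. The mean of all probe sets gave 196 and 253 genes over all, with 1 pathway gene higher and 1 lower. A mean of at least 5 gave 2 pathway genes higher. Centring on 21 housekeeping genes moved the median of all probe sets to -0.10 and gave 2 members higher, 2 lower and 3 pathway genes higher. A further quantile normalization, trend and robust fitting, and a fold of at least 2 left the member counts at 1 and 1.

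The replicate numbers do not pair the arrays: deviations of same-numbered arrays correlated at 0.208, -0.329 and 0.285, and 2 of 6 arrays correlated best with their own number. With the replicate block, 1 probe set was called higher and 23 lower over all, and 0 and 0 members, with adjusted p = 0.0596 for FGFR3 and 0.111 for FGF2.

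FGFR3 and both FGF2 probe sets kept their direction in every setting that tested them. Signs turned for some differences that were not called in the main fit, and the cause was not tested. With hybridization level as a block, FGFR1 211535_s_at was 0.12, against -0.48 in the main fit, and FGFRL1 was -0.01. With housekeeping centring, FGF5 was -0.0035. With 1 array left out, SPRY2 ranged from -0.55 to -0.13 and SPRY1 from -0.38 to 0.16, being 0.16 without MBD2 array 1 and 0.14 without control array 3, and without both of them SPRY1 was 0.38 and SPRY2 0.01. The 3 arrays a group limit what can be seen. In simulated data, whose arrays vary independently unlike the real ones, no change of 1.5-fold was called, the only size under 2-fold tried.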
